A study of Mus musculus with 564 samples.

Results

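The colony-stimulating factors Csf1, Csf2 and Csf3 and the chains of their receptors, Csf1r, Csf2ra, Csf2rb, Csf2rb2 and Csf3r, were followed through histone H3 lysine 27 acetylation (H3K27ac), which marks promoters and enhancers in use. All cis-regulatory elements (CREs, regions of open chromatin) whose centre lay within 25 kb of a RefSeq transcription start of these 8 genes in the mouse genome build mm10 were taken. This gave 44 CREs of the 59190 in the series, with 7 at Csf1, 5 at Csf2, 3 at Csf3, 11 at Csf1r, 3 at Csf2ra, 5 at Csf2rb, 3 at Csf2rb2 and 7 at Csf3r. Each CRE was counted once, at the nearest start of a member, and the rule itself used no measured value. Of these, 3 have another gene as their nearest: the CRE 17.8 kb upstream of Csf3 covers the start of Psmd3, that 14.7 kb downstream of an inner Csf3r start covers the start of Mrps15, and that 19.6 kb downstream lies nearest to Oscp1.

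The series holds H3K27ac ChIP-seq libraries of bone marrow-derived macrophages (BMDMs), primary cells grown from the marrow of wild type male C57/BL6 mice aged 6 to 8 weeks. Cells were kept for 1 h in vehicle (DMSO, 18 libraries) or in 1 of 58 clinical kinase inhibitors (CKIs, 546 libraries). They were then left unstimulated (UT) or received 10 ng/mL of lipopolysaccharide (LPS, from the outer membrane of bacteria, read by the receptor TLR4) or of the cytokine interleukin 4 (IL-4) for 30 min, 1 h, 2 h or 4 h. The treatment labels give UT as 4 h without stimulus after the pre-treatment, while the titles give 0 h. If the labels hold, UT and the shorter times differ in time in culture too, which cannot be told apart from the stimulus. DMSO cells gave 2 replicates for UT and for each stimulus and time, and no source used here says whether these came from separate cultures or mice, so p-values measure the spread between libraries, which may be technical.

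Csf1 (M-CSF) signals through the receptor tyrosine kinase Csf1r and keeps macrophages alive. BMDM cultures commonly depend on it. Csf2 (GM-CSF) signals through a ligand-binding alpha chain, Csf2ra, and a shared beta chain, Csf2rb, which also serves the receptors of interleukin 3 and interleukin 5. Csf2rb2 is a mouse paralog of the beta chain used by interleukin 3. Csf3 (G-CSF) drives the production of neutrophils through Csf3r. In macrophages the 3 factors can be products of inflammatory activation, while Csf1r is a defining gene of the lineage.

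In short, acetylation rose at Csf1 and Csf2 and fell at Csf1r within 30 min to 1 h of LPS, and none of the Csf1r CREs called after LPS was higher. An upstream element of Csf3r rose after both stimuli, at once after IL-4 and slowly after LPS. The Csf2ra upstream CRE fell after LPS and came most of the way back by 4 h. It was lower with a family of 5 PI3K and mTOR inhibitors, after IL-4 mainly through BGT226 and Omipalisib.

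The sequences below are those of the elements on which these results turn. The first pair are the 250 bases before a start in RefSeq's GRCm38.p6 annotation, on the strand of the gene, for the Csf1 promoter, which rose after LPS, and the Csf3r promoter, which rose late. Of the 8 genes, 5 matched the promoter table, and Csf1r, Csf2rb and Csf3 had no entry. The others are the central 300 bases of a CRE, on the plus strand of the same build. They are the strongest gain at Csf1, 15.3 kb upstream, the strongest gain at Csf2, 12.1 kb downstream, the transient loss 16.4 kb upstream of Csf2ra, and the Csf3r element 19.2 kb upstream, which gained after both stimuli. Capitals mark letters of a motif on either strand. They are GGG and CC with 5 bases between them (the kappaB letters of NF-kB) in the Csf1 promoter and the Csf1 element, the kappaB letters and GAGGAA (ETS) in the Csf3r promoter, and the kappaB letters and GAGGAAGT (PU.1) in the Csf2 element. In the Csf2ra element they are GAGGAAGT and 2 copies of GAAA with 2 bases between them (ISRE), and in the Csf3r element TTC and GAA with 4 bases between them, the spacing known for STAT6.
Csf1 promoter (chr3:107760470-107760719, minus strand): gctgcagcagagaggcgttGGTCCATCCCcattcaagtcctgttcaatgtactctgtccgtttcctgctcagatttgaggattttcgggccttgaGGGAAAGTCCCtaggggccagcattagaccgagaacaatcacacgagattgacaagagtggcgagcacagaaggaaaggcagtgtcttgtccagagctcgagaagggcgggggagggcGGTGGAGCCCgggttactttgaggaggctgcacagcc
Csf3r promoter (chr4:126024409-126024658, plus strand): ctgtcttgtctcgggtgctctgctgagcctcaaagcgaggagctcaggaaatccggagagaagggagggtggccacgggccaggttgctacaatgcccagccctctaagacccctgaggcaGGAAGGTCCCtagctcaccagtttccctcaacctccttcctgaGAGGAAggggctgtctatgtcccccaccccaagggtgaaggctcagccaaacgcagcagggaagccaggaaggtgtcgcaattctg
Csf1 15.3 kb upstream (chr3:107775634-107775933, plus strand): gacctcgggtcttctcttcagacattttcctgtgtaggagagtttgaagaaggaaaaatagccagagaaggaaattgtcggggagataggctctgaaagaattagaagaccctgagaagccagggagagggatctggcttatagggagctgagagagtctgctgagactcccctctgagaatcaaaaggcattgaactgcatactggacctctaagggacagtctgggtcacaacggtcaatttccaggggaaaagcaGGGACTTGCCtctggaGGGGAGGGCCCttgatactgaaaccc
Csf2 12.1 kb downstream (chr11:54237041-54237340, plus strand): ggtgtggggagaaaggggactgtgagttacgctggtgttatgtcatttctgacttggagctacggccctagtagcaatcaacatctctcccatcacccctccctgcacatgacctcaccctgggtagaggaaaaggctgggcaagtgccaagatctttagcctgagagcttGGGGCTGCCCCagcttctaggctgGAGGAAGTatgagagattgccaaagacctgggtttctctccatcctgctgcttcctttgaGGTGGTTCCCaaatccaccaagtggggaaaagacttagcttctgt
Csf2ra 16.4 kb upstream (chr19:61244748-61245047, plus strand): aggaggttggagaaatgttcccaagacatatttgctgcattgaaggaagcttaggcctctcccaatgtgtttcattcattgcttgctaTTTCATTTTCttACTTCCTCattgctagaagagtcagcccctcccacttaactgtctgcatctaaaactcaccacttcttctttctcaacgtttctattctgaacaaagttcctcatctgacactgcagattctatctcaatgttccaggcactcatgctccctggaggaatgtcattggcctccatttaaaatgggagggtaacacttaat
Csf3r 19.2 kb upstream (chr4:126004123-126004422, plus strand): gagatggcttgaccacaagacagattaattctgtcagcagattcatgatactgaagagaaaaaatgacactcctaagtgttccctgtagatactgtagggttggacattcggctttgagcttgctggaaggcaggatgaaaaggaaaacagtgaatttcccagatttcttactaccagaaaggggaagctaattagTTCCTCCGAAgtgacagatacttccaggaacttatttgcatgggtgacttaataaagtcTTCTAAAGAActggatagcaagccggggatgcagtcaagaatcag

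Such letters are common. The kappaB letters are found in 45.8% of 32851 promoter windows of 250 bases and in 40.4% of the central 300 bases of all CREs. GAGGAA is in 23.3% of those promoters, and overlaps GAGGAAGT. GAGGAAGT is in 9.11% of the CRE centres, the ISRE letters in 5.14% and the STAT6 letters in 9.22%. The Csf3r element holds the STAT6 letters at 2 places, and kappaB matches overlap each other in the Csf1 and Csf2 elements. Not all motif letters are in capitals. The Csf3r element also holds the ISRE letters, and the Csf2ra element the kappaB letters. The centre of the CRE 21.4 kb upstream of Csf3r, which took a similar course, has no STAT6 letters. These matches describe letters and do not show binding.

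The DMSO courses asked which of the 44 CREs respond to each stimulus. Values are normalised read counts as the authors scaled and rounded them, and log2 differences are on the scale log2(value + 5), which understates the change of low CREs. A CRE was called at a limma F-test adjusted p under 0.01 over the 4 times, with a difference from UT over 1 on the log2 scale at 1 or more times. CREs with a mean of at least 10 were tested. After LPS, 43 of the 44 were tested and 30 were called (69.8%), 19 higher and 11 lower, against 53.5% of all tested CREs (29.0% higher and 24.6% lower). After IL-4, 38 were tested and 10 were called (26.3%), 8 higher and 2 lower, against 24.7% of all (13.6% higher and 11.0% lower). The share called after LPS stood above that of all CREs and the share after IL-4 was close to it. Directly between the stimuli at matched times, 32 of 42 differed (76.2%), 16 higher and 16 lower after LPS, against 58.4% (29.2% higher and 29.2% lower). The median of the largest difference was 0.85 after LPS and 0.28 after IL-4, beside 0.37 and 0.21 over all tested CREs. The stimulus courses share the UT libraries.

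**Figure D1:**
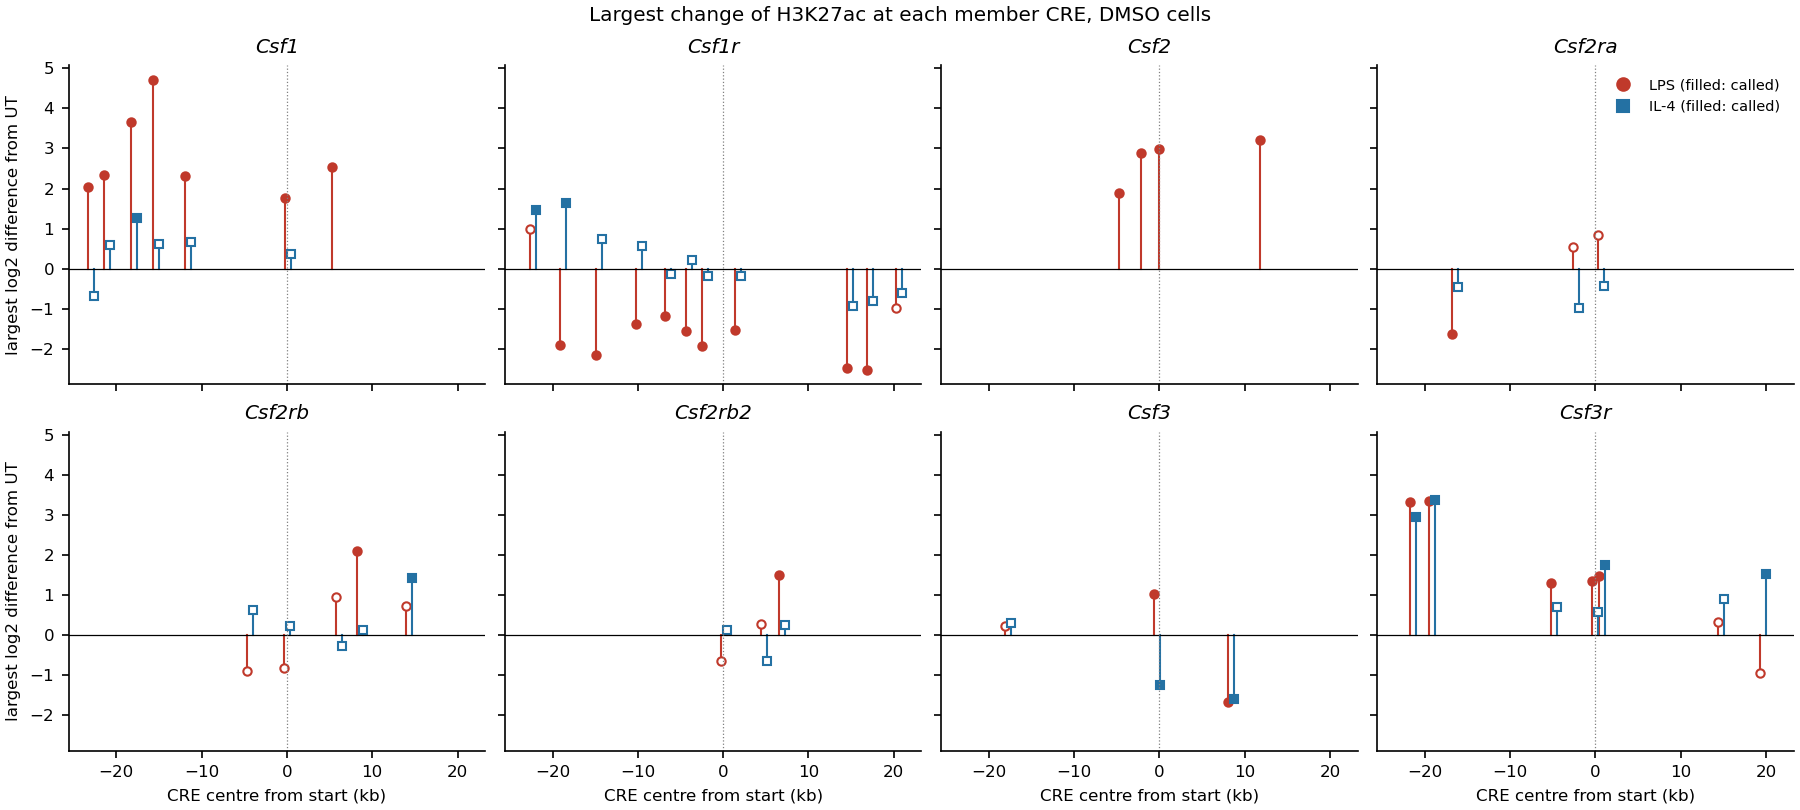
Largest log2 difference from UT in DMSO cells (y axis) at each tested CRE by the distance of its centre from the nearest start of the gene (x axis, kb; negative is upstream), after LPS (circles, set slightly to the left) and IL-4 (squares, set slightly to the right); filled symbols were called. The 7 Csf1 and 4 tested Csf2 CREs all point up after LPS, and 9 Csf1r CREs are called down. The Csf2 CREs and the Csf1 CRE 5.6 kb inside the gene passed the filter only through their LPS libraries.

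Before stimulation the genes differed widely in their marks. Per kb of width, the mean UT level was 363 normalised reads at the CRE over the Csf1r start, the 99.9th percentile of all CREs. The promoter CREs of the receptor chains followed with 269 per kb at Csf2rb (99.2th percentile), 211 at Csf2rb2 (97.9th), 198 at Csf3r (97.4th) and 114 at Csf2ra (89.2th). The ligand promoters were lower, with 48.8 per kb at Csf1 (69.0th), 10.8 at Csf3 (36.3th) and 2.17 at Csf2 (6.91th). Receptor promoters thus stood above ligand promoters in both UT replicates, and the gap between Csf1 and Csf3, or Csf3 and Csf2, was wider than that between replicates. Csf2rb2 and Csf3r were close, with 211 and 212 against 190 and 206 per kb.

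Among the ligands, Csf1 gained the most. All 7 of its CREs were called higher after LPS, with largest differences from 1.77 to 4.71. That 5.6 kb inside the gene, with a UT mean of 2, passed the filter only through its LPS libraries. The intergenic CRE 15.3 kb upstream (chr3:107774299-107777269) was near the floor in UT, at 18 and 15 normalised reads. After LPS it held 424 and 384 at 30 min, 481 and 465 at 1 h, 544 and 569 at 2 h and 276 and 199 at 4 h. The lowest LPS library, at 199, stood far above the higher UT library. After IL-4 it stayed between 16 and 30. The rise after LPS was 4.71 ± 0.16 (SE, n = 2 per time) at 2 h on the log2 scale (limma, adjusted p over the course 2.59e-23), and the level at 4 h against that at 30 min was lower (-0.77 ± 0.16, adjusted p = 0.000147; 35.3% of all tested CREs differed between these times). IL-4 gave at most 0.62 and no call.

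The next Csf1 element, 18 kb upstream (chr3:107777363-107779509), had 22 and 17 normalised reads in UT, 208 and 217 after 30 min of LPS, 287 and 244 at 1 h, 288 and 316 at 2 h, and 162 and 130 at 4 h. Its largest rise was 3.65 ± 0.18 at 2 h (limma, adjusted p 1.11e-18). It is the sole Csf1 CRE called after IL-4, with 46 and 63 at 30 min, a difference of 1.27 ± 0.29 (adjusted p 0.00332). That call was lost under 4 of the alternatives run, among them without the second IL-4 replicate at 30 min (1.07, adjusted p 0.0646).

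The Csf1 promoter CRE (chr3:107759473-107761225), which covers the start and a coding exon, was already marked, at 87 and 84 in UT. It rose to 137 and 163 at 30 min, 233 and 181 at 1 h and 290 and 318 at 2 h of LPS, with 173 and 237 at 4 h. All 8 LPS libraries stood above both UT libraries. The rise of 1.77 ± 0.18 at 2 h (limma, adjusted p 1.29e-09) was smaller than at the upstream pair, and IL-4 libraries, between 61 and 113, gave no call.

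Csf2 began almost unmarked. Of its 5 CREs, 4 were tested after LPS and all 4 were called higher, each with its highest level at 1 h. Their UT means were 4 to 9, under the filter of 10, so they were tested only through their LPS libraries. With so little room to fall, the direction of these calls was largely set by the filter. The CRE at the start (chr11:54248684-54250526) had 6 and 2 normalised reads in UT, 41 and 30 at 30 min, 53 and 79 at 1 h, 16 and 12 at 2 h, and 11 and 16 at 4 h. All LPS libraries stood above UT, and the 1 h libraries above all others. The rise was 2.99 ± 0.36 at 1 h (limma, adjusted p over the course 3.91e-08), and 4 h was lower than 30 min (-1.13 ± 0.36, adjusted p 0.00969). The IL-4 libraries held between 1 and 6, and the Csf2 CREs were too low to be tested after IL-4.

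The intergenic CRE 12.1 kb downstream of Csf2 (chr11:54236376-54238006) kept more of its gain. It had 9 and 9 in UT, 48 and 63 at 30 min, 113 and 137 at 1 h, 57 and 31 at 2 h and 59 and 63 at 4 h of LPS, against 1 to 7 after IL-4. The rise was 3.21 ± 0.28 at 1 h and still 2.24 ± 0.28 at 4 h (limma, adjusted p 7.16e-11). The CRE 1.8 kb upstream, with 10 and 6 in UT, reached 81 and 100 at 1 h and was back at 16 and 13 at 4 h. Its difference was 2.89 ± 0.32 at 1 h and 0.60 ± 0.32 at 4 h, and the fall from 30 min to 4 h was itself called (-1.33 ± 0.32, adjusted p = 0.000731).

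Csf3 behaved unlike the other ligands. Its promoter CRE (chr11:98699304-98701998) held 27 and 31 normalised reads in UT and after LPS 66 and 63, 58 and 53, 41 and 24, and 62 and 48 at the 4 times. LPS and UT overlapped at 2 h and at no other time. After IL-4 it held 30 and 24, 11 and 13, 15 and 10, and 12 and 7, below UT from 1 h on. The LPS difference was 1.03 ± 0.28 at 30 min (limma, adjusted p 0.00193) and the IL-4 difference -1.25 ± 0.35 at 4 h (0.00255), and each lost its call under several alternatives. The test between the stimuli was firmer, with LPS above IL-4 by 2.06 ± 0.31 at 4 h (adjusted p 3.69e-10).

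The CRE 8.4 kb downstream of Csf3 (chr11:98707893-98711612) overlaps an exon of Med24, a Mediator subunit gene. It rose and then fell. It had 405 and 368 in UT, then after LPS 594 and 766 at 30 min, 233 and 218 at 1 h, 108 and 128 at 2 h and 282 and 206 at 4 h. The 30 min libraries were above UT and all later ones below it. The difference went from 0.80 ± 0.16 at 30 min to -1.67 ± 0.16 at 2 h (limma, adjusted p 8.1e-15). After IL-4 the level fell more slowly, to 123 and 129 at 4 h, a difference of -1.58 ± 0.13 (1.2e-16). The Csf3 CRE at the Psmd3 start lay between 195 and 265 in all 18 DMSO libraries and was not called.

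**Figure D2:**
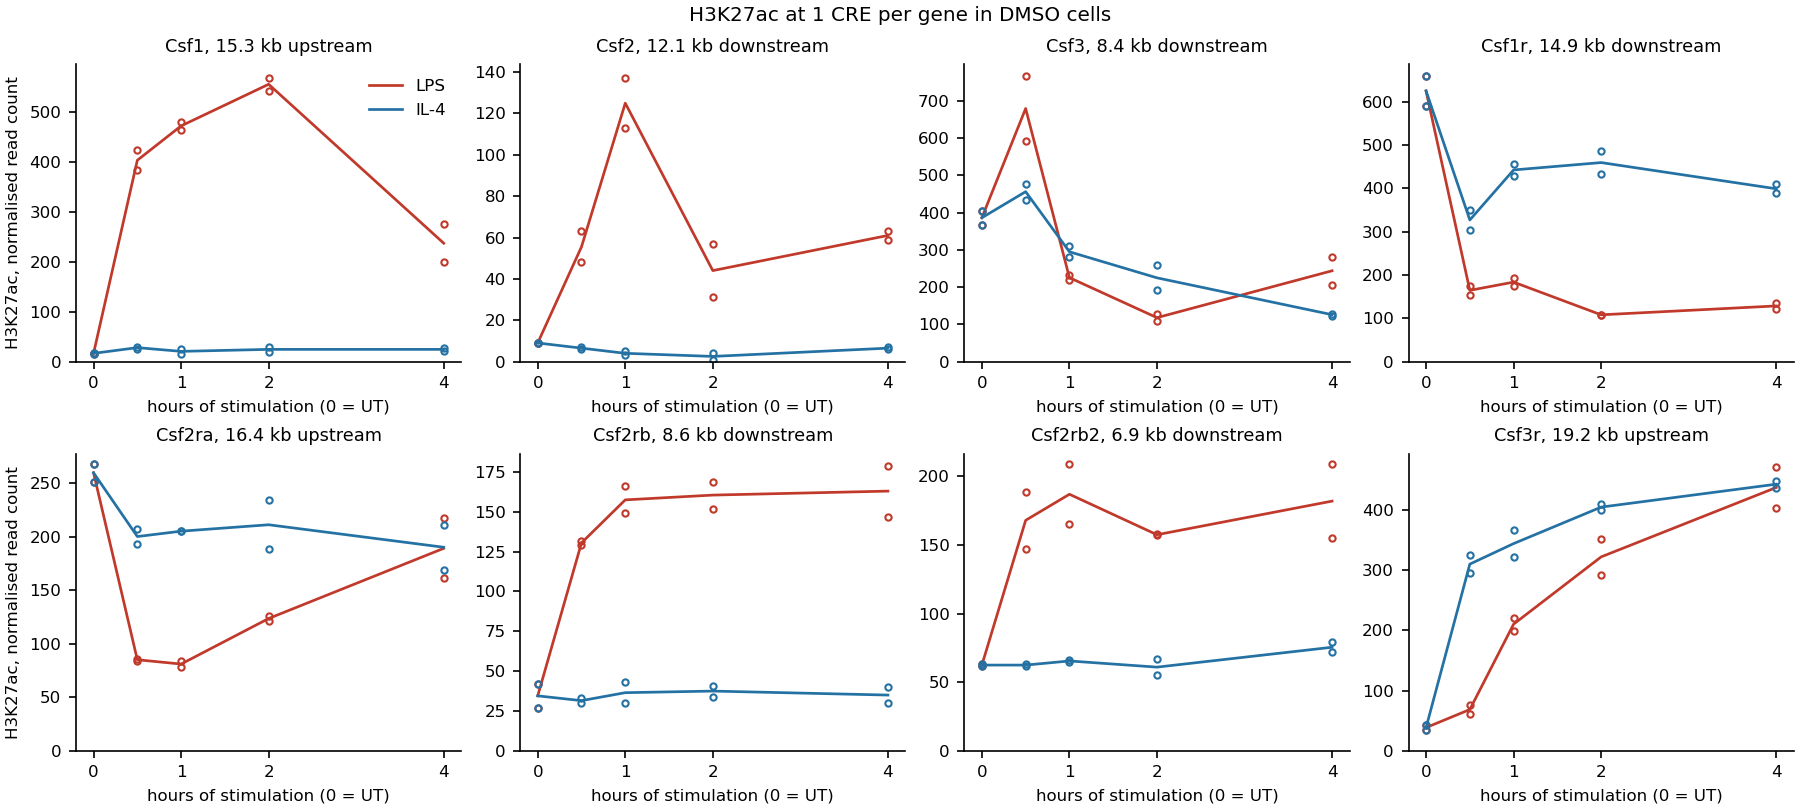
Normalised read counts of H3K27ac (y axis, from 0) against hours of stimulation (x axis) at 1 CRE for each of the 8 genes in DMSO cells; circles are the 2 replicates and lines join their means, with LPS in red, IL-4 in blue and the UT libraries shared and drawn at 0, as in their titles. The Csf1 and Csf2 elements rise after LPS alone, the Csf1r element falls, and the Csf3r element reaches similar levels after both stimuli at 4 h.

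Of the receptors, Csf1r lost acetylation over most of its locus. After LPS, 9 of its 11 CREs were called lower, and the other two, which overlap exons of Pdgfrb (22.3 kb upstream) and of Csf1r (20.7 kb downstream), were not called. The CRE over the start (chr18:61104855-61109726), the widest of the 44 at 4.87 kb, held 1794 and 1744 normalised reads in UT. After LPS it held 1531 and 1608 at 30 min, 822 and 870 at 1 h, 621 and 610 at 2 h and 1095 and 1006 at 4 h. All LPS libraries were below UT, with the lowest values at 2 h. The difference was -0.17 ± 0.09 at 30 min and -1.52 ± 0.09 at 2 h (limma, adjusted p 3.86e-17). After IL-4 it lay between 1458 and 2044, around UT, with no call. In these whole cultures fewer cells with the mark and less of the mark per cell cannot be told apart.

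The intronic Csf1r CREs fell sooner. That 14.9 kb downstream of the start (chr18:61119272-61121610) went from 659 and 591 in UT to 175 and 154 after 30 min of LPS, and held 175 and 192, 108 and 108, and 135 and 122 later. The highest LPS library, at 192, was far below the lower UT value. The difference was -1.89 ± 0.16 at 30 min and -2.48 ± 0.16 at 2 h (limma, adjusted p 2.59e-15). IL-4 also lowered it at 30 min, to 351 and 303 (-0.93 ± 0.10, adjusted p 4.55e-09), short of the threshold of 1, and LPS minus IL-4 was -2.04 ± 0.13 at 2 h.

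The CRE 17.2 kb downstream (chr18:61121926-61123637) fell from 195 and 230 to 30 and 36 at 30 min and stayed at 32 to 43 through 4 h of LPS. Its difference was -2.52 ± 0.25 at 30 min (limma, adjusted p 3.97e-11). After IL-4 it dipped to 123 and 115 at 30 min and was back at 230 and 224 by 2 h.

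At the intergenic CREs far upstream the stimuli parted. The CRE 18.8 kb upstream of Csf1r (chr18:61085534-61088034) held 140 and 121 in UT. It fell after LPS to 48 and 63, 70 and 46, 32 and 31, and 62 and 51, and rose after IL-4 to 197 and 202, 290 and 310, 324 and 341, and 440 and 394. No LPS or IL-4 library overlapped UT. The LPS difference was -1.89 ± 0.25 at 2 h (limma, adjusted p 1.46e-06), the IL-4 difference 1.64 ± 0.12 at 4 h (1.09e-15), and LPS minus IL-4 was -3.21 ± 0.19 at 2 h. Its neighbour 14.5 kb upstream moved alike, with -2.16 after LPS and 0.73 after IL-4, the latter not called. The CRE farthest upstream, in Pdgfrb at 22.3 kb, held 53 and 20 in UT and 86 and 117 at 4 h of IL-4, a called rise (1.47 ± 0.26, adjusted p 3.3e-05). Its LPS difference of 1.00 and the difference between the stimuli were not called.

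The alpha chain gene Csf2ra showed a transient loss. Its intergenic CRE 16.4 kb upstream (chr19:61244037-61245759) had 268 and 251 normalised reads in UT, then after LPS 86 and 84, 84 and 78, 126 and 121, and 217 and 161. All LPS libraries were below UT, and those at 4 h above all earlier ones. The difference was -1.62 ± 0.18 at 1 h and -0.46 ± 0.18 at 4 h (limma, adjusted p 7.28e-10), and the return from 30 min to 4 h was 1.09 ± 0.18 (6.59e-06). After IL-4 it lay between 169 and 234, below UT in every library, with a largest difference of -0.45 and no call. The Csf2ra promoter CRE (chr19:61226316-61229312) moved the other way and briefly, from 328 and 355 to 614 and 625 at 30 min of LPS and 285 and 357 at 1 h. That rise of 0.85 ± 0.13 (adjusted p 6.43e-08) was under the threshold of 1, while LPS and IL-4 at 30 min differed by 1.12 ± 0.13 and were called. Without the second IL-4 replicate at 30 min that difference was 0.92 and no longer called.

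At the beta chains, promoters dipped while an inner element of each gene was called higher. The CREs 6.2 and 14.3 kb inside Csf2rb (largest LPS differences 0.95 and 0.73) and 4.8 kb inside Csf2rb2 (0.29) were not called after LPS. The Csf2rb promoter CRE (chr15:78325082-78326844) went from 468 and 480 to 292 and 246 at 30 min of LPS, and to 567 and 464 at 4 h. The dip was -0.81 ± 0.13 (limma, adjusted p 6.75e-07), not past the threshold, and the rise from 30 min to 4 h was 0.92 ± 0.13 (2.27e-07). The Csf2rb2 promoter CRE (chr15:78304853-78306487) dipped from 346 and 345 to 229 and 210 (-0.64 ± 0.14, 0.000796) and was also not called. All 30 min LPS libraries were below UT at both.

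The CRE 8.6 kb inside Csf2rb (chr15:78333825-78335405) had 42 and 27 in UT and 129 and 132, 166 and 149, 152 and 169, and 179 and 147 after LPS. It rose by 2.11 ± 0.20 at 4 h (limma, adjusted p 1.15e-11), and IL-4 libraries, between 30 and 43, gave no call. The CRE 6.9 kb inside Csf2rb2 (chr15:78298031-78299592) had 63 and 62 in UT and 147 to 209 at all LPS times. It rose by 1.5 ± 0.19 at 1 h (1.67e-08). These paralogs share sequence. Of the 51-base words, the length of the trimmed reads, 5.32% to 25.2% in the Csf2rb CREs and 3.15% to 18% in the Csf2rb2 CREs occur again in the genome, so some reads could have been placed at either gene. One further Csf2rb CRE, 14.3 kb inside the gene and low (12 and 19 in UT), was called after IL-4 at 1 h (46 and 53, 1.43 ± 0.29, adjusted p 0.00103), and lost that call with a pseudocount of 20 (0.97) and without UT replicate 1 (1.18, adjusted p 0.0424).

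Csf3r gained acetylation after both stimuli, at different speeds. The intergenic CRE 19.2 kb upstream (chr4:126003304-126005242) had 34 and 43 normalised reads in UT. After LPS it held 61 and 76, 199 and 221, 351 and 292, and 471 and 402, and after IL-4 it held 325 and 294 already at 30 min, then 321 and 366, 399 and 409, and 448 and 436. The libraries of the stimuli did not overlap before 4 h and overlapped then. The LPS difference grew from 0.76 ± 0.18 to 3.35 ± 0.18 (limma, adjusted p 2.67e-18), while that of IL-4 went from 2.86 ± 0.13 to 3.37 ± 0.13 (9.39e-28). LPS minus IL-4 was -2.10 ± 0.15 at 30 min and -0.02 ± 0.15 at 4 h. Of its 51-base words, 21.7% occur again in the genome.

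The CRE 21.4 kb upstream of Csf3r (chr4:126001227-126002803), with no repeated word, took a similar course. It had 11 and 13 in UT, 23 and 22 at 30 min and 178 and 155 at 4 h of LPS, against 108 and 108 at 30 min and 131 and 122 at 4 h of IL-4. The differences at 4 h were 3.33 ± 0.26 after LPS and 2.95 ± 0.20 after IL-4, and at 30 min LPS minus IL-4 was -2.04 ± 0.22 (limma, adjusted p 9.21e-10).

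Closer in, Csf3r changed late and mainly after LPS. The promoter CRE (chr4:126023839-126025455) rose from 308 and 333 in UT to 427 and 405, 441 and 444, 652 and 617, and 836 and 817 after LPS, every library above UT. It rose by 1.35 ± 0.11 at 4 h (limma, adjusted p 2.77e-12). After IL-4 it held 407 to 519, also above UT, by at most 0.58 ± 0.10, and was not called. The CRE 4.9 kb upstream (chr4:126017045-126020003) first fell from 369 and 317 to 218 and 223 at 30 min of LPS and then reached 895 and 794 at 4 h. The change from 30 min to 4 h was 1.91 ± 0.13 (adjusted p 4.18e-14). A low CRE 0.8 kb from an inner Csf3r start was called higher after both stimuli, by 1.47 ± 0.44 and 1.75 ± 0.32 at 4 h.

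The responses were read again in CKI-treated cells, which share no library with the DMSO courses. In 314 LPS and UT libraries, with the compound as a term, 21 of 44 CREs were called (47.7%), 13 higher and 8 lower, against 28.9% of all CREs (15.4% higher and 13.5% lower). In 305 IL-4 and UT libraries, 5 were called (11.4%), 3 higher and 2 lower, against 8.84% (5.33% higher and 3.50% lower). All 30 CREs called after LPS in DMSO cells had the same direction at the same time in CKI-treated cells, and 21 were called in both. The same held for 10 of 10 after IL-4, with 5 called in both. The share of all CREs called in DMSO cells that did so was not taken, so these counts do not set the members apart. The differences at these CREs were smaller, with a median ratio of CKI-treated to DMSO of 0.61 after LPS and 0.69 after IL-4. Libraries of CKI-treated cells were also flatter and shallower. The strongest 10% of CREs took 32.4% to 46.3% of their total (median 40.9%), against 42.6% to 46.0% in DMSO libraries (median 44.3%). The Csf1 CRE 15.3 kb upstream had a median of 49 normalised reads in 73 UT libraries with CKIs (11 to 111), against 18 and 15 with DMSO. The part of these differences between libraries in the smaller responses was not tested.

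Compound by compound, each against its own UT, many directions were stable. The Csf1 CRE 15.3 kb upstream was higher after LPS in 58 of 58 compounds at 30 min, 57 of 57 at 1 h, 55 of 55 at 2 h and 55 of 55 at 4 h, with a lowest log2 difference of 0.50. The Csf1r CRE 14.9 kb downstream was lower in all of the same compounds at the 4 times, with differences from -3.06 to -0.78. The Csf3r CRE 19.2 kb upstream was higher after IL-4 in 58 of 58, 58 of 58, 56 of 56 and 55 of 55. After LPS it was higher in 44 of 58 at 30 min and in 55 of 55 at 2 h and at 4 h, so that the slow rise was seen again. The Csf1r CRE 18.8 kb upstream was higher after IL-4 in 58 of 58 at 30 min and 55 of 55 at 4 h, and lower after LPS in 51 of 58 and 41 of 55. The Csf3r CRE 4.9 kb upstream was lower in 57 of 58 after 30 min of LPS and higher in 48 of 55 at 4 h. The Csf2rb promoter CRE was lower in 58 of 58 at 30 min of LPS. Other members and times were less stable. At 4 h of LPS the Csf2rb promoter CRE was higher in 34 of 55, and its difference over all compounds was 0.02. The Csf2 promoter CRE was higher in 54 of 57 at 1 h of LPS and in 30 of 55 at 4 h, and the Csf3r promoter CRE in 31 of 57 at 1 h and in 51 of 55 at 4 h, where most compounds have 1 library.

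**Figure D3:**
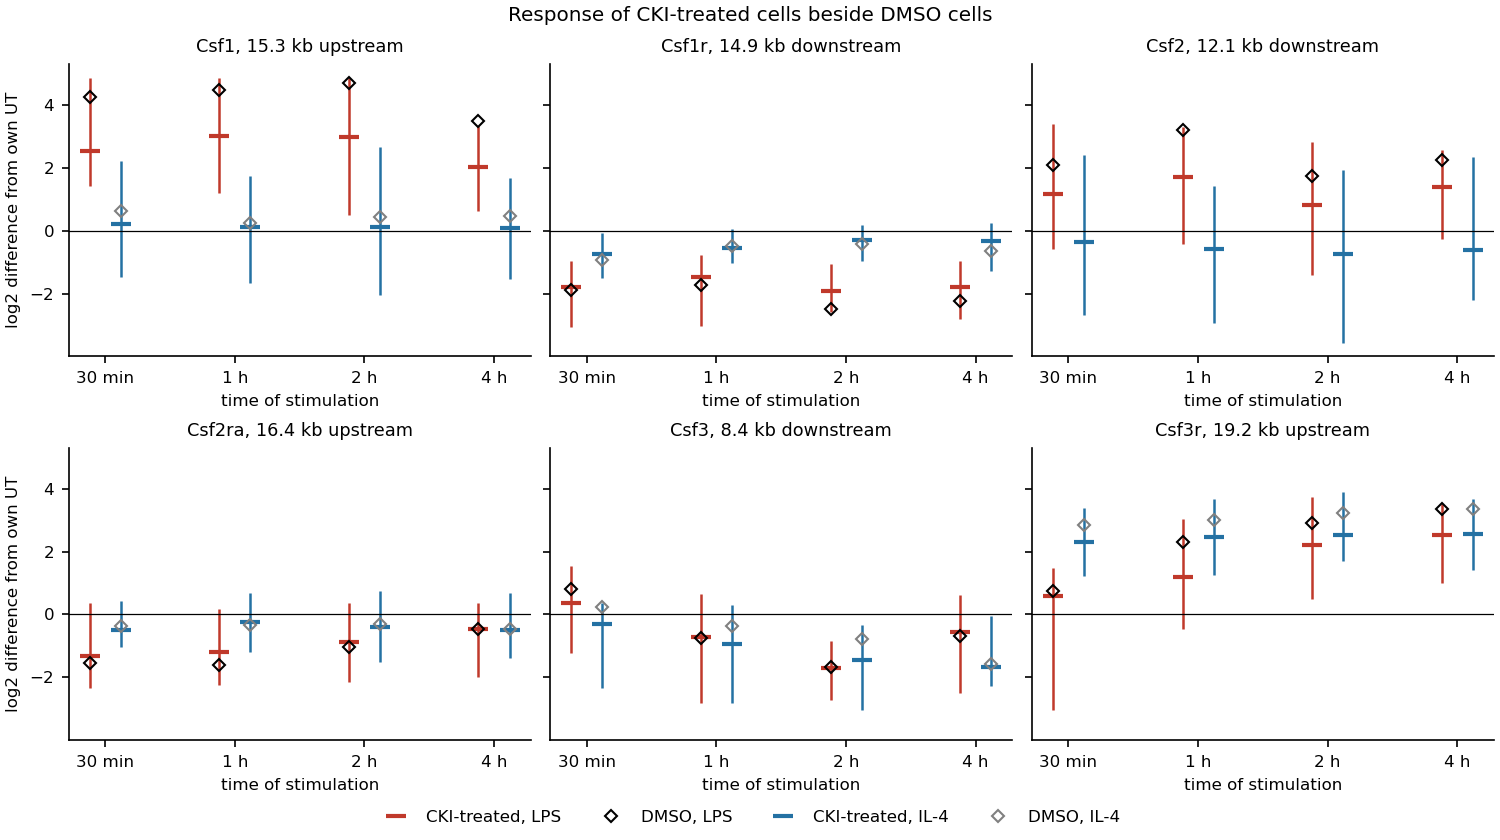
Log2 difference of stimulated cells from UT (y axis) at 4 times (x axis) for 6 CREs; vertical lines run from the lowest to the highest of the CKIs, each against its own UT, thick ticks are their medians and diamonds are the DMSO cells (black LPS, grey IL-4; the Csf2 CRE was not tested for IL-4 in DMSO cells). The Csf1 lines stay above 0 after LPS, the Csf1r lines stay below 0 after LPS, and the IL-4 lines of Csf3r stay above 0 at all times.

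The effect of each CKI was first set against DMSO, as 1 coefficient averaged over the UT and LPS libraries (or UT and IL-4 libraries) of a compound, and called at a limma adjusted p under 0.05 and a log2 difference over 0.5. Of 2552 pairs of CRE and CKI, 703 were called after LPS (584 higher and 119 lower) and 989 after IL-4 (909 higher and 80 lower). Of all pairs in the series 36.4% (32.3% higher and 4.04% lower) and 39.2% (36.2% higher and 3.03% lower) were called as well. With quantile normalization the counts were 100 (50 higher and 50 lower) and 187 (135 higher and 52 lower). CREs that were low in the DMSO libraries carried many of them. The Csf2 promoter CRE, low in UT and after IL-4, was called with 58 of 58 CKIs after IL-4, with a median of 1.78. The Csf3r CRE 19.2 kb upstream, low in UT but raised by IL-4, was called with 1. Each CKI was then set against the mean of its run, one of 6 stretches of neighbouring columns in the table, which differ in depth and are given as no batch by the labels. There 21 pairs were called after LPS (7 higher and 14 lower), against 1.08% of all pairs (0.722% higher and 0.359% lower), and 24 after IL-4 (12 higher and 12 lower), against 1.15% (0.803% higher and 0.344% lower).

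Of the 21 pairs after LPS, 15 were with the p38 inhibitor PH797804, 11 lower and 4 higher. This compound differed from its run at 40.2% of all CREs. Its 30 min LPS library was the shallowest of all, with an estimated 0.171 M reads in CREs, each worth 23.7 normalised reads. Without that library, an alternative added after the data were seen, 12 members were called and the share over all CREs was 48.2%. The calls were then lower at Csf2rb2 and Csf3r and higher at Csf1, Csf1r, Csf2 and Csf3. Over all CKIs, the 21 pairs (7 higher and 14 lower) became 18 (10 higher and 8 lower). The Csf3r CRE 19.2 kb upstream stood at -1.54 ± 0.20 from the run with that library and at -0.99 without it. After IL-4, 8 of the 24 pairs were with PH797804, 7 of them higher, at CREs of Csf1, Csf2 and Csf3, while the compound was called at 38.8% of all CREs.

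A family of 5 inhibitors of PI3K and mTOR, kinases of growth factor signalling, differed at single CREs. AZD2014, Apitolisib, BGT226, Omipalisib and PF04691502 were tested as 1 family against CKIs of no tested family, with the compound as the replicate and the run as a term. The Csf2ra CRE 16.4 kb upstream was lower with them after LPS (-0.40 ± 0.09, limma, adjusted p = 0.00439) and after IL-4 (-0.45 ± 0.10, adjusted p = 0.00617). They called 2.82% of all CREs after LPS and 4.66% after IL-4. After LPS the 5 compounds stood at -0.48 (AZD2014), -0.46 (BGT226), -0.42 (PF04691502), -0.34 (Omipalisib) and -0.04 (Apitolisib) from their run means. After IL-4 they spread more, with BGT226 at -1.08 ± 0.12 (adjusted p = 4.92e-14), Omipalisib at -0.77 ± 0.12 (adjusted p = 1.86e-07), PF04691502 at -0.16, Apitolisib at -0.08 and AZD2014 at 0.14. The 38 CKIs of no tested family ranged from -0.37 to 0.32 after LPS, which takes in Omipalisib and Apitolisib, and from -0.38 to 0.37 after IL-4, which takes in all but BGT226 and Omipalisib. Those 38 include AZD8186 and TG100115, PI3K inhibitors outside the family, at -0.35 and 0.30 after LPS and 0.16 and 0.05 after IL-4. Without the run as a term the family call held after LPS (-0.42 ± 0.12, adjusted p = 0.0386) and after IL-4 (-0.52 ± 0.13, adjusted p = 0.0292). These are effects over UT and stimulated libraries together, and the lowest UT library of this CRE, at 79 normalised reads against a median of 211, was that of Omipalisib.

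The same family was higher at the Csf2rb CRE 6.2 kb inside the gene after LPS (0.35 ± 0.10, adjusted p = 0.0292), and after IL-4 higher at the Csf2rb2 CRE 4.8 kb inside the gene (0.32 ± 0.09, adjusted p = 0.021) and lower at the Csf1r CRE 17.2 kb downstream (-0.30 ± 0.07, adjusted p = 0.00616). Without the run as a term neither of these IL-4 calls held (adjusted p = 0.0735 and 0.0537). At the Csf2rb2 CRE, BGT226 stood at 0.89 after LPS and 0.84 after IL-4 and Omipalisib at 0.59 and 0.57. JAK inhibitors and MEK or ERK inhibitors gave 0 calls over all CREs after either stimulus, and p38 inhibitors 0 after IL-4, in the limma fit. Over the 44 CREs and the 4 families, 27 pairs after LPS and 17 after IL-4 had an unadjusted p under 0.05. The share of all CREs under that p was not taken, so these counts do not set the members apart. The p38 family, which called 2.15% of all CREs after LPS, had no call here with all libraries. Without the shallowest library it was higher at the Csf2 promoter CRE (0.59, adjusted p = 0.0219) and at a further Csf1 CRE and Csf2 CRE. The share of all CREs called in that fit is not given here, so these calls do not set the members apart.

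**Figure D4:**
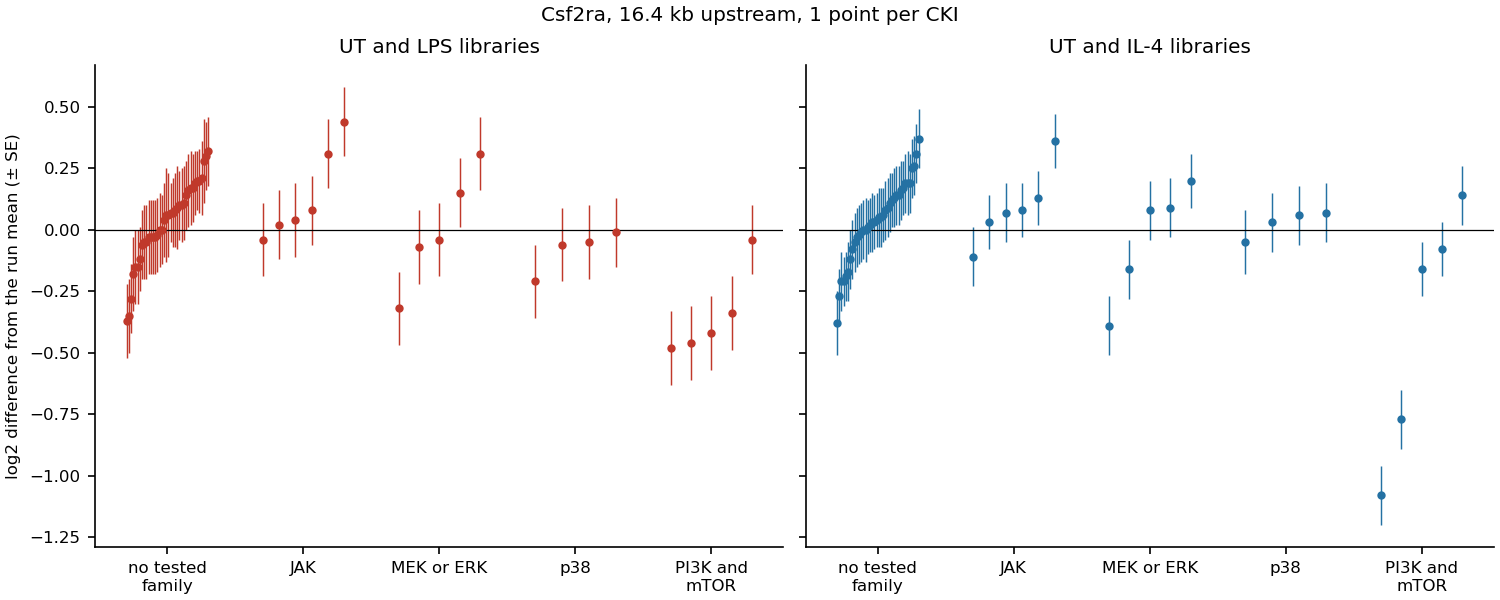
Log2 difference of each CKI from the mean of its run (y axis; bars are the SE) at the Csf2ra CRE 16.4 kb upstream, over UT and LPS libraries (left) and UT and IL-4 libraries (right), with CKIs grouped by target family (x axis) and ordered by value within a family. All 5 CKIs of the PI3K and mTOR family lie below 0 after LPS, and BGT226 and Omipalisib lie at -1.08 and -0.77 after IL-4.

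The CKIs that the study's compound table lists with CSF1R among their targets, OSI930, BMS911543 and SNS314, gave no call at the Csf1r CREs over the start or in the introns. Their differences from the run mean there lay between -0.25 and 0.30, with an SE of 0.07 to 0.19 each, so that changes of that size cannot be told from none. Other single calls against the run included the Csf3 CRE 8.4 kb downstream after IL-4, where 5 CKIs were called: Talmapimod (-0.68), Apatinib (-0.67), Pimasertib (-0.61) and BMS911543 (-0.54) were lower and BGT226 (0.60) higher. Mubritinib was lower at the Csf3r CRE 21.4 kb upstream after LPS (-1.13 ± 0.24), as was the JAK inhibitor Filgotinib at the Csf1 promoter CRE after IL-4 (-0.60 ± 0.15). These coefficients take in UT libraries. The lowest CKI library in UT at the Csf1 promoter CRE, at 23 normalised reads against a median of 86, was of Filgotinib.

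Across all DMSO and CKI libraries together, with compound means removed, the member CREs fell into patterns that the shared stimuli set. Pearson's r was 0.92 between the Csf1 CREs 15.3 and 18 kb upstream, 0.87 between the far upstream Csf3r pair and 0.85 between the intronic Csf1r pair. The Csf1 CRE 15.3 kb upstream ran with the Csf2 CRE 12.1 kb downstream (0.80) and against the Csf1r CRE 14.9 kb downstream (-0.84). Among promoter CREs of other genes, that over the Csf1r start was most like Plekho1 (0.92), Ubald1 and Il6ra (0.91 each), and the Csf2rb promoter most like Lst1 (0.85). The Csf2 promoter was most like Gem (0.72), and the Csf3r promoter most like Irf7 (0.73) and Cd274 (0.72). These are descriptions over libraries of the same time courses.

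Of 35 further genes of the CSF pathway, 26 had a CRE within 1 kb of a start, and 14 of these 26 were called after LPS in DMSO cells (6 higher and 8 lower) and 4 after IL-4 (all higher), against 53.5% and 24.7% of all tested CREs, so the share after LPS was near that of all CREs. By role these included 6 of 11 signal transducers, 4 of 5 inhibitors, 2 of 4 target genes and 0 of 1 further receptor chain after LPS. Jak2, the kinase bound to Csf2rb and Csf3r, rose by 2.73 ± 0.09 after LPS at 2 h and by 1.22 ± 0.10 after IL-4 at 1 h. Stat5a, a transducer of Csf2 signals, rose by 2.42 ± 0.11 at 2 h of LPS, while Stat5b was called lower (-1.07 ± 0.16 at 30 min). The feedback inhibitor Socs3 rose by 2.37 ± 0.10 at 4 h of LPS, while Inpp5d, the lipid phosphatase SHIP1, fell by 2.97 ± 0.16 at 1 h. Of the factors of the receptor genes, Cebpa fell by 2.54 ± 0.24 at 4 h of LPS, and Spi1, the gene of PU.1, was not called, with largest differences of 0.26 after LPS and -0.36 after IL-4.

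The labelled cell type was checked at marker promoters. Of 7 macrophage markers, 5 had a promoter CRE, at 218 to 666 normalised reads in the UT libraries, and all 5 were called lower at their largest difference after LPS, beside the falls at Csf1r. Fcgr1 held 193 and 202 at 30 min of LPS and 1251 and 1143 at 4 h, below and then above the 632 and 650 of UT. Of 6 neutrophil markers 2 had one, both at 4 to 18 in UT, where Camp rose after LPS to 171 and 120 at 4 h, beside the late rise of Csf3r. None of 4 lymphocyte markers had one, and the single ones of the dendritic and stromal lists, Flt3 and Col1a1, were at 3 to 8 in UT. Flt3 was called higher after IL-4, with 27 and 31 at 30 min (1.51 ± 0.33, adjusted p 0.00153), beside the IL-4 gains at Csf3r. The part of other cells in the results was not tested. Totals of normalised reads per library were 5.92 to 6.87 M with DMSO and 4.07 to 12.4 M with CKIs, and the estimated reads in CREs were 2.34 to 5.41 M and 0.171 to 6.01 M, so the lowest CREs rest on few reads.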

How the data were processed

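H3K27ac ChIP-seq was measured in 18 DMSO and 546 CKI libraries of BMDMs. Per the study's methods, the authors trimmed single-end reads to 51 bases, mapped them to mm10 with ShortStack, counted reads around ATAC-seq peaks and scaled libraries on peaks that did not vary. The labels' processing notes name Bowtie and SAMtools. The authors deposited these normalised read counts as whole numbers after scaling, so each value was used as a score rather than a raw count, without a count model.

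CREs were placed on the RefSeq annotation of GRCm38.p6. The 8 genes, the pathway and marker lists and the described CREs were chosen with earlier results of these data known. Described were the promoter CRE of each gene (within 1 kb of a start) and up to 2 called CREs with the largest difference. The Csf1r CREs over the start and 18.8 kb upstream and the Csf3r CRE 4.9 kb upstream were added after their values were seen, as were the smaller results named in passing.

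Tests used limma 3.58.1 in R 4.3.3 (moderated variances with a mean trend) on log2(value + 5), over all CREs with a mean of at least 10 and with Benjamini-Hochberg adjustment, and other steps used Python 3.11.15, pandas 2.3.3 and numpy 2.4.6. The study called regulated CREs with an impulse model at the same thresholds. The scripts were tested on simulated data. Reads per library were estimated from the spacing of its values, which was not found in 2 DMSO and 19 CKI libraries, so the depth of those is unknown, and low CREs carry counting error. Runs of CKIs are consecutive columns of the table, and the labels give no batch. A title suffix b was taken as a further library of its group. Deviations of same-numbered DMSO replicates correlated between -0.09 and 0.07 over 36 pairs of groups, so the numbers do not pair the libraries. Alternatives were other pseudocounts, filters, quantile normalization, thresholds, a 10 kb window, each replicate left out, a replicate block and other references.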

Additional observations from a re-analysis of the deposited data

Results flagged for a closer look

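At 4 CREs the direction differed between stimuli or between times, by a limma test of the difference itself. LPS minus IL-4 was -3.21 on the log2 scale at 2 h at the CRE 18.8 kb upstream of Csf1r, which fell after LPS and rose after IL-4. It was 2.06 at 4 h at the Csf3 promoter CRE, where the change after each stimulus alone lost its call under several alternatives. From 30 min to 4 h of LPS the level changed by -1.47 at the CRE 8.4 kb downstream of Csf3, inside Med24, which was above UT at first and below it later. The same contrast was 1.91 at the CRE 4.9 kb upstream of Csf3r, which was below UT at first and above it later.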

How the results depend on the processing

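In the DMSO courses, no call at a described CRE changed sign under any alternative run. The balance of higher and lower calls did change under some. Of the 30 CREs called after LPS, 10 after IL-4 and 32 between the stimuli, a 10 kb window left 17, 3 and 17, and 9 and 2 CREs in CKI-treated cells. That window also holds fewer CREs, with 1450 pairs of CRE and CKI against 2552. Lower counts in it thus need not be lower shares, and the shares were not taken. In DMSO cells the calls after IL-4 in that window were 1 higher and 2 lower, against 8 and 2 with 25 kb. A log2 threshold of 0.5 gave 19 after IL-4. Leaving out 1 DMSO library gave 28 to 32 after LPS, 7 to 12 after IL-4 and 30 to 34 between them. The replicate block gave the same counts of 30, 10 and 32, though the numbers pair no libraries. CKI calls against DMSO (703 and 989) depended most on scaling. They were 100 after LPS (50 higher, 50 lower) and 187 after IL-4 (135 higher, 52 lower) with quantile normalization. They were 454 after LPS with DMSO replicate 1 alone, and 21 and 24 against the run mean, or 18 after LPS without the shallowest library. In the 10 kb window they were 444 and 613, out of 1450 pairs instead of 2552. Against DMSO, 584 were higher and 119 lower after LPS, but against the run mean 7 and 14, and 10 and 8 without that library. Family calls after LPS (2) were 6 with a pseudocount of 20 and 5 without that library, and after IL-4 (3) were 1, at Csf2ra, without the run as a term. The cause was not tested. The alternatives without the shallowest library were chosen after seeing the data. Of named CREs, the Csf3 promoter lost its LPS call with a pseudocount of 20 (0.79), quantile normalization (0.99) and without UT replicate 1 (0.95), and its IL-4 call with a pseudocount of 20 (-0.74) and without UT replicate 1, UT replicate 2 or the second 4 h replicate (-1.0 to -1.33). Over the described CREs and alternatives of the DMSO courses, 1267 values kept their side of the threshold, 14 lost a call and 15 gained one.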
